A study of Mus musculus with 2 samples.

Results

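The pericytes described here are 85 cell barcodes of the adult mouse brain, of 17169 barcodes with at least 200 detected genes and 17474 in all. A barcode was taken when at least 3 of the 5 genes Kcnj8, Abcc9, Atp13a5, Higd1b and Rgs5 had at least 1 unique molecular identifier (UMI, 1 captured RNA molecule) and fewer than 5 of the 7 fibroblast genes Dcn, Lum, Col1a1, Col1a2, Col3a1, Pdgfra and Slc6a13 were detected. No limit was put on the share of mitochondrial UMIs. The members were thus chosen by the UMIs of these 12 genes, whose values are given as a description only. In all, 62 members came from Mrc1Cre:Csf1rfl/fl mice (the mutant) and 23 from Csf1rfl/fl mice (the control).

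The study sorted cells of the whole brain and sequenced them with 10x Chromium 3′ v3.1 chemistry, as 1 library per genotype. Both genotypes carried the floxed Csf1r allele, and the mutant also carried Cre under the control of Mrc1, a gene of border-associated macrophages (BAMs). Gates were CD31 for endothelial cells, ACSA-2 for astrocytes, CD13 and/or CD140a with O4 excluded for mural cells and fibroblasts, high CD11b with F4/80 for BAMs and high F4/80 with CD11b for microglia. The sources used here state neither how many cells each gate gave nor how many mice a library holds. With 1 library per genotype there was no replicate, no test was made between genotypes, and every interval below covers counting error only, not the spread between mice.

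Pericytes are mural cells embedded in the basement membrane of capillaries, where they lie against the endothelium. They depend on platelet-derived growth factor from endothelial cells, received through Pdgfrb, and on Notch3. They set capillary tone through ion channels and receptors that change membrane potential and calcium, and they help to maintain the blood-brain barrier. Kcnj8 and Abcc9 encode the pore (Kir6.1) and the regulatory subunit (SUR2) of an ATP-sensitive potassium channel. Atp13a5 is a P-type ATPase used as a marker of brain pericytes, Rgs5 restrains G-protein signalling, and Higd1b is a mitochondrial protein of the hypoxia-induced gene family.

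The channel genes lie side by side on chromosome 6 of GRCm38, both on the minus strand. Kcnj8 spans 142564837 to 142571614 and Abcc9 spans 142587862 to 142702315, with 16247 bases between them. Both had a UMI in 28 of 62 mutant and 13 of 23 control members, and neither had one in 3 mutant and 1 control members. The promoters of the rule genes are shown because detection of these genes defines the members. RefSeq promoters of GRCm38.p6, from 250 bases before to 50 after the start of the gene, were at hand for 4 of the 5 genes. They lie at chr6:142571565-142571864 (minus strand, Kcnj8), chr6:142702225-142702524 (minus strand, Abcc9), chr1:169655251-169655550 (plus strand, Rgs5) and chr16:29378683-29378982 (minus strand, Atp13a5). Capitals mark the core TGGGAA, on either strand, bound by RBPJ, the DNA-binding partner of Notch receptors.
Kcnj8: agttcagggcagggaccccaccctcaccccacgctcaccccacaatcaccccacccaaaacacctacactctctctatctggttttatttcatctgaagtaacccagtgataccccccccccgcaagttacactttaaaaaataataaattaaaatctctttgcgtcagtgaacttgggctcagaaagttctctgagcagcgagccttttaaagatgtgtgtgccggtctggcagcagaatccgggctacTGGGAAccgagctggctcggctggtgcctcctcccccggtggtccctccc
Abcc9: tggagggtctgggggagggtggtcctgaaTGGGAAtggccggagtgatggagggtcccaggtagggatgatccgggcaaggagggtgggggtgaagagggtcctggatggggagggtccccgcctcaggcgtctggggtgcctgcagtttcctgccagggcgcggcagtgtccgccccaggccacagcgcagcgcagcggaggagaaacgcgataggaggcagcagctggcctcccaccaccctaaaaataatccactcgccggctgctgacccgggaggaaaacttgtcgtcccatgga
Rgs5: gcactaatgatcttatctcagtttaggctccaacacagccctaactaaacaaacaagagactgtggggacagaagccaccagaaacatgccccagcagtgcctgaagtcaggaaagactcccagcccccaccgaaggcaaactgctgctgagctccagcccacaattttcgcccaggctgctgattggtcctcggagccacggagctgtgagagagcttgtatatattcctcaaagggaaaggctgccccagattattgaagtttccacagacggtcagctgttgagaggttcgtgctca
Atp13a5: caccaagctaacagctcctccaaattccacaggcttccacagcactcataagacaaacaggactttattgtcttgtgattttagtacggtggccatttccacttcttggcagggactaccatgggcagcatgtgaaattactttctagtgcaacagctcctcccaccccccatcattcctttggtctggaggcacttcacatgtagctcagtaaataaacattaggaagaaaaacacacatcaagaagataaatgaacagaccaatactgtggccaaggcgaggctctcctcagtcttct

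The RBPJ core was found once in the Kcnj8 window and once in the Abcc9 window, and it is not among the letters of the Rgs5 and Atp13a5 windows. It is common, being held by 25.6% of 32851 promoters of the same length. The forkhead core TGTTTAC (3.65% of promoters), the T-box core AGGTGTGA (1.28%) and the EBF core (0.904%) had no match on either strand in the 4 windows. The motifs do not overlap one another. A match describes letters and is no evidence of binding, and a window without a match says nothing of the factor.

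The 5 rule genes had different weights in the libraries. Atp13a5 had 281 UMIs in 55 of 62 mutant members and 237 UMIs in 22 of 23 control members. Rgs5 had 234 UMIs in 51 mutant members and 390 UMIs in 20 control members. Abcc9 had 148 UMIs in 49 mutant members and 116 UMIs in 19 control members. Atp13a5 led Rgs5 in 32 of 62 mutant members and in 10 of 23 control members. Kcnj8 had 67 UMIs in 38 mutant members and 80 UMIs in 16 control members, and Higd1b had 47 UMIs in 24 mutant members and 107 UMIs in 16 control members. Atp13a5 was also present in 102 of 433 astrocyte-marked barcodes (23.6%) in the mutant and in 481 of 1614 (29.8%) in the control, while Kcnj8 and Higd1b were at 0 in astrocyte-marked barcodes of both libraries.

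At the threshold, members with exactly 3 markers numbered 38 in the mutant and 9 in the control. A further 18 pericyte genes outside the rule (among them Pdgfrb, Vtn, Cspg4 and Notch3) were detected at a median of 7 and 10 genes in these members. Just outside, with 2 markers, stood 36 mutant and 16 control barcodes with a median of 4.5 of these genes in each library. Of the outside barcodes, 13 mutant and 12 control barcodes also passed the marker count of another cell class. Exactly 4 markers were found in 17 mutant and 4 control members, and all 5 in 7 mutant and 10 control members.

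Pericytes were few and shallow in both libraries. They made up 0.727% of mutant barcodes with at least 200 genes (95% exact binomial interval 0.558 to 0.931%, n = 62 of 8525) and 0.266% of control barcodes (0.169 to 0.399%, n = 23 of 8644). Their median depth was 1146.5 UMIs in the mutant (524 to 30908) and 2857 UMIs in the control (547 to 49711), against 8236 and 7998 UMIs over all barcodes of the mutant and control libraries. The libraries themselves held 82806348 UMIs in the mutant and 85716531 UMIs in the control. Of the cell barcode sequences, 17 occurred in both libraries, and none of these was a member.

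Most mutant members lay among barcodes rich in mitochondrial RNA. At most 10% mitochondrial UMIs, members numbered 14 of 6369 mutant barcodes (0.220%, 0.120 to 0.369%) and 15 of 5869 control barcodes (0.256%, 0.143 to 0.421%). Between 10 and 30%, they numbered 30 of 1723 mutant barcodes (1.74%, 1.18 to 2.48%) and 5 of 2256 control barcodes (0.222%, 0.0720 to 0.516%). Above 30%, they numbered 18 of 433 mutant barcodes (4.16%, 2.48 to 6.49%) and 3 of 519 control barcodes (0.578%, 0.119 to 1.68%). The intervals of the libraries overlap widely in the lowest range and are apart in the upper ranges.

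The median mitochondrial share was 19.1% in mutant members (1.95 to 59.3%) and 7.98% in control members (3.20 to 74.8%). Members above 10% made up 77.4% in the mutant and 34.8% in the control. Other classes were counted by their own markers. The share above 10% was 31.4% and 28.2% of endothelial barcodes, 26.1% and 33.3% of fibroblast barcodes, and 42.7% and 61.8% of astrocyte barcodes in the mutant and the control. Over all barcodes it was 25.3% in the mutant and 32.1% in the control. The part of mitochondrial content in the pericyte shares was not tested.

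Members with at least 2000 UMIs numbered 17 in the mutant and 14 in the control (0.231% of 7358 and 0.185% of 7550 barcodes of that depth). With every such barcode thinned to 2000 UMIs, 8 of 7318 mutant barcodes (0.109%) and 12 of 7501 control barcodes (0.160%) met the rule. Among barcodes of this depth the mutant share was thus the higher before thinning and the lower after it. No interval is given for these shares, which rest on 17, 14, 8 and 12 barcodes, so no order of the libraries is read from them. In both counts 45 shallower mutant members and 9 shallower control members are left out. Of the 17 and 14 deeper members, only 4 in the mutant and 5 in the control did not also pass the marker count of another cell class.

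**Figure D1:**
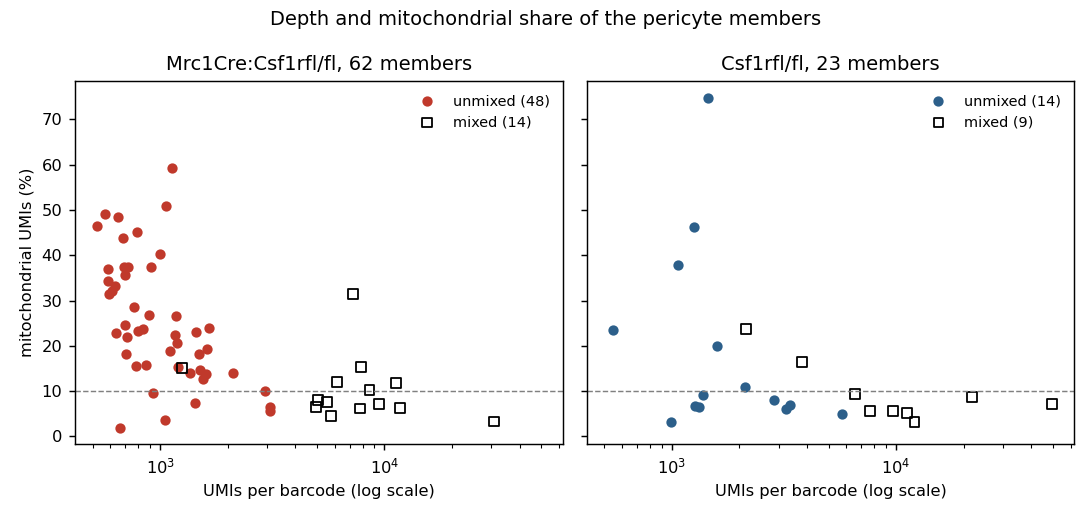
Each point is 1 pericyte member, with its UMIs on a log axis and its percentage of mitochondrial UMIs, for the mutant (left) and the control (right). Filled circles are unmixed members, open squares are members that also pass the marker count of another class, and the dashed line is at 10%. Most of the 48 unmixed mutant members lie above 10%, and the deepest unmixed members, at 3101 UMIs in the mutant and 5762 UMIs in the control, lie among the shallower mixed ones.

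Some members also carried markers of another cell class, and whether each of them holds a pericyte was not tested. Those that also passed the marker count of another class are called mixed below, and numbered 14 in the mutant and 9 in the control. They held 69.8% of all member UMIs in the mutant and 81.6% in the control. In the mutant, 5 of them had microglial, 3 endothelial, 3 choroid plexus, 2 ependymal and 2 astrocyte markers, and in the control 5 had endothelial, 3 astrocyte, 2 choroid plexus and 1 ependymal markers, with 1 member in each library counted under choroid plexus and ependymal and 1 control member under endothelial and astrocyte. No control member was mixed with microglia. The doublet caller Scrublet marked 3 mutant members and 0 control members, fewer than the mixed members of either library. The deepest mutant member, with 30908 UMIs, had all 7 microglial markers, 1 or 2 UMIs of each rule gene and none of Pdgfrb. A choroid-mixed mutant member of 7238 UMIs had 1 UMI each of 3 rule genes and none of Pdgfrb. An endothelial-mixed mutant member of 5770 UMIs had none of Abcc9, Atp13a5, Pdgfrb and Vtn. By contrast, an endothelial-mixed control member of 12078 UMIs had all 5 rule genes and 22 UMIs of Pdgfrb. The deepest control member, with 49711 UMIs, had 10760 UMIs of Ttr, the transthyretin gene of the choroid plexus. Unmixed members numbered 48 in the mutant (0.563%, 0.415 to 0.746%) and 14 in the control (0.162%, 0.0886 to 0.272%), with 53427 and 28184 UMIs in the mutant and the control.

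The label was checked on genes outside the rule, of which Vtn and Pdgfrb are given here. The unmixed members carried Vtn and Pdgfrb at high level. Not every gene outside the rule was found so widely. Anpep, the CD13 of the sort gate, had a UMI in 10 of 48 unmixed mutant members and 3 of 14 unmixed control members. Levels are CPM, the UMIs of a gene scaled to a total of 1e+06 over the summed UMIs of a class in 1 library. Vtn, which encodes vitronectin, stood at 16078 CPM in unmixed mutant members (46 of 48 members with a UMI) and at 21182 CPM in unmixed control members (14 of 14). In microglia, which should lack it, 1.87% of mutant and 1.57% of control barcodes had a Vtn UMI at median depths of 8049.5 and 7886 UMIs. Vtn was next highest in fibroblasts, at 317 CPM in the mutant (29.1% of barcodes with a UMI) and 2382 CPM in the control (56.1%). Pdgfrb stood at 1441 CPM (1137 to 1801) in unmixed mutant members and 1561 CPM (1134 to 2096) in unmixed control members, and was next highest in fibroblasts, at 99.2 CPM in the mutant and 117 CPM in the control.

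Markers of other cells are given for the unmixed members as a description, since a member with 4 or more of the 7 markers of a class was counted as mixed and low sums follow in part from that. The endothelial markers summed to 262 CPM in the mutant and 177 CPM in the control (1.40% and 0.905% of their sum in endothelial barcodes), and the BAM markers to 56.2 CPM and 35.5 CPM (0.432% and 0.243%), with Cd163, Lyve1, Ms4a7 and Cbr2 at 0 in both. The astrocyte markers summed to 393 CPM in the mutant and 1242 CPM in the control (2.67% and 7.44% of the astrocyte level). The ependymal markers summed to 393 CPM in the mutant and 816 CPM in the control (8.96% and 13% of the ependymal level), with 6 of the 7 at 0 in both libraries.

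Smooth muscle cells are the other mural cells of the gate, and no barcode was removed on their genes. The 12 smooth muscle genes summed to 636 CPM in unmixed mutant members and 2022 CPM in unmixed control members, against 132 and 351 CPM in fibroblasts. Myl9 made up most of the control sum, at 1490.2 CPM. In the mutant 7 of the 12 genes were at 0, and in the control 8, Acta2, Tagln and Cnn1 in both, which allows up to 56.2 CPM per gene in the mutant and 106 CPM in the control (3 UMIs of the sum). Over all members, Acta2 was at 0 in the mutant and had 28 UMIs in the control, 27 of them in 1 endothelial-marked control member.

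Microglial and choroid plexus RNA was present in the unmixed members too. The 7 microglial markers summed to 7937 CPM in mutant members and 687 CPM in control members, and without mixed members to 2995 CPM in the mutant and 1880 CPM in the control (13.6% and 7.93% of the microglial level). All 7 were detected among unmixed members of both libraries, at a median of 2 and 2.5 genes per member. Ttr was found in all 62 mutant and 23 control members. Its median was 15 UMIs per mutant member and 14 per control member, although the control members were deeper. The origin of these transcripts was not tested.

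**Figure D2:**
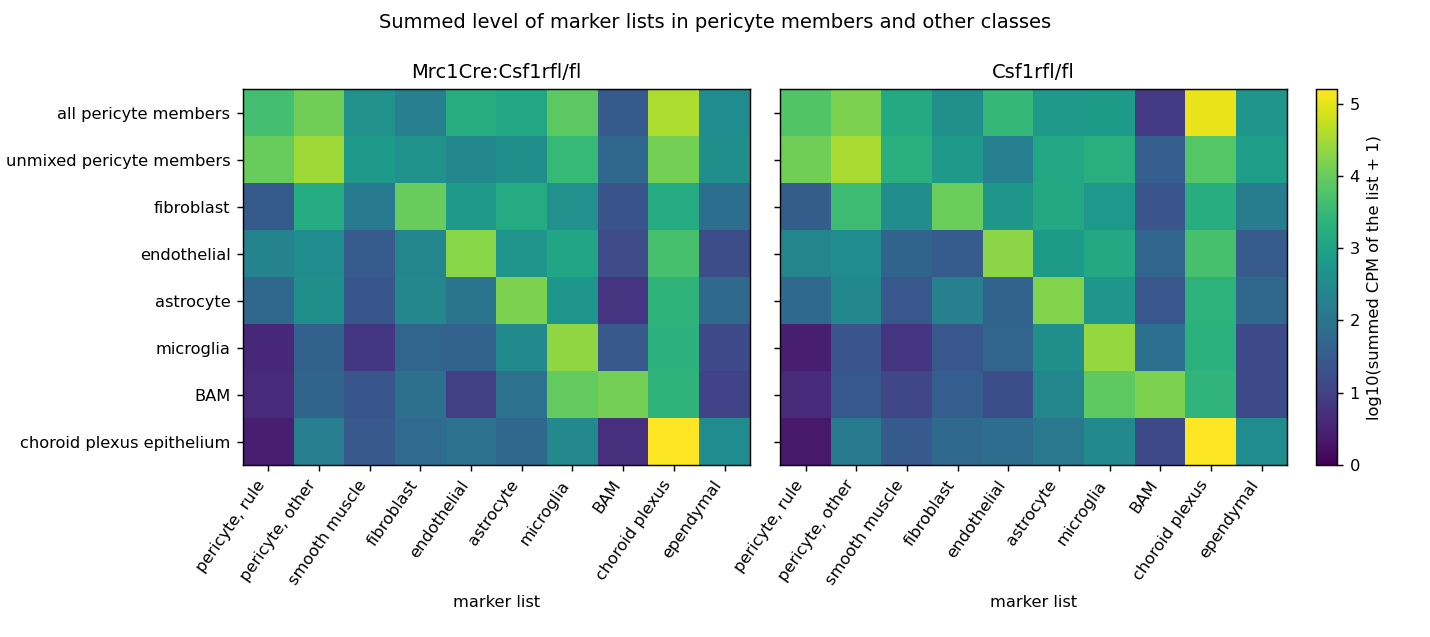
Colour gives log10 of the summed CPM of each marker list plus 1, with barcode classes as rows and lists as columns, for the mutant (left) and the control (right). The list of 18 pericyte genes outside the rule is highest in the pericyte rows, while the list of rule genes chose those rows, and the choroid plexus column is raised in every row.

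Genes outside the rule were also compared between pericytes and the other classes. As genes of the cells that the rule chose they are a description. A gene was called when its CPM in the members was at least 3 times that of the highest other marker-counted class in both libraries, with at least 10 UMIs in the members of each. Classes with under 10 barcodes in a library were not compared. This left out the 9 ependymal and 6 neuron barcodes of the control, so the control ratios take no account of them. Among all members 37 of 2252 measured genes met this (1.64%), and among unmixed members 47 of 290 (16.2%), with 24 genes called in both. Of the 18 pericyte genes outside the rule, 15 were measured and 13 were called over all members. Anpep, the CD13 of the sort gate, was not, at 1.16 and 0.832 times the level in fibroblasts of the mutant and the control, and nor was Cald1 (1.55 and 2.71 times). Over unmixed members 11 of the 18 genes were measured and all 11 were called. Being measured needs 10 UMIs in the members themselves, which favours genes that are high in them. Anpep, with 3 UMIs in unmixed control members, was not measured there. These counts are therefore no check of the label. Ifitm1, Tbx18 and Mcam had too few UMIs over all members to be measured in this comparison. Their levels were 0.892 and 1.11 (Ifitm1), 0.299 and 0.675 (Tbx18) and 0.712 and 1.60 (Mcam) times the highest other class in the mutant and the control.

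The 20 called genes with the highest smaller ratio of the libraries include several that store or move calcium and other ions. Casq2, a calcium-binding protein of the sarcoplasmic reticulum, had 147 CPM in mutant and 131 CPM in control members, 146 and 143 times the next class. Ano1, a calcium-activated chloride channel, had 215 CPM in mutant and 196 CPM in control members, 31.4 and 40.1 times fibroblasts. The calcium pump gene Atp2a3 had 271 CPM in mutant and 164 CPM in control members, against 24.7 and 9.89 CPM in the next class. Slc38a11, a member of an amino acid transporter family, had 407 CPM in mutant and 242 CPM in control members, at least 66.0 times the next class. None of these 4 genes passed 24.7 CPM in any other compared class when mixed members are counted as pericytes. When mixed members with 1 other class are counted there, the ratios of unmixed members to the next class were 468 and 8.77 for Casq2, 13.9 and 9.48 for Ano1, 22.7 and 7.29 for Atp2a3, and 16.8 and 29.8 for Slc38a11, in the mutant and the control. Of the 20 genes, 12 were called in unmixed members. Among the rest, Casq2, Cysltr2, Ano1, Cox4i2, Gper1, Pla1a and Atp2a3 had 5 to 9 UMIs in unmixed control members, too few to be measured there.

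Several of the 20 genes are receptors or enzymes of vessel tone. Pth1r, the parathyroid hormone receptor, had 378 and 301 CPM in mutant and control members, and P2ry14, the receptor for UDP-glucose, had 282 and 491 CPM. Gucy1b1, the beta subunit of the nitric oxide receptor guanylate cyclase, had 277 CPM in mutant and 432 CPM in control members. Gper1, a membrane oestrogen receptor, had 90.4 and 242 CPM, and Cysltr2, a leukotriene receptor, had 67.8 and 157 CPM. These 5 genes stood at 6.55 times the next class or more in each library.

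Ndufa4l2 and Cox4i2, isoforms of respiratory chain components that respond to low oxygen, were called as well. Ndufa4l2 had 266 CPM in mutant and 766 CPM in control members, 18.3 and 26.1 times the next class. Cox4i2 had 136 CPM in mutant and 249 CPM in control members, 28.1 and 50.3 times endothelial barcodes, and 27.6 and 4.51 times the next class over unmixed members, on 17 and 6 UMIs. Of adhesion and matrix genes, Cspg4 (the NG2 proteoglycan) had 373 and 347 CPM, Aspn (asporin) had 249 and 275 CPM, and Pcdh18 (a protocadherin) had 175 and 157 CPM in mutant and control members. Notch3, which keeps mural cells in place, had 345 CPM in mutant and 347 CPM in control members, and was next highest in astrocytes at 36.5 and 31.3 CPM. The remaining named genes were Art3 at 435 and 314 CPM, Ggt1, which breaks down glutathione, at 113 and 144 CPM and Pla1a, a phospholipase, at 79.1 and 118 CPM.

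**Figure D3:**
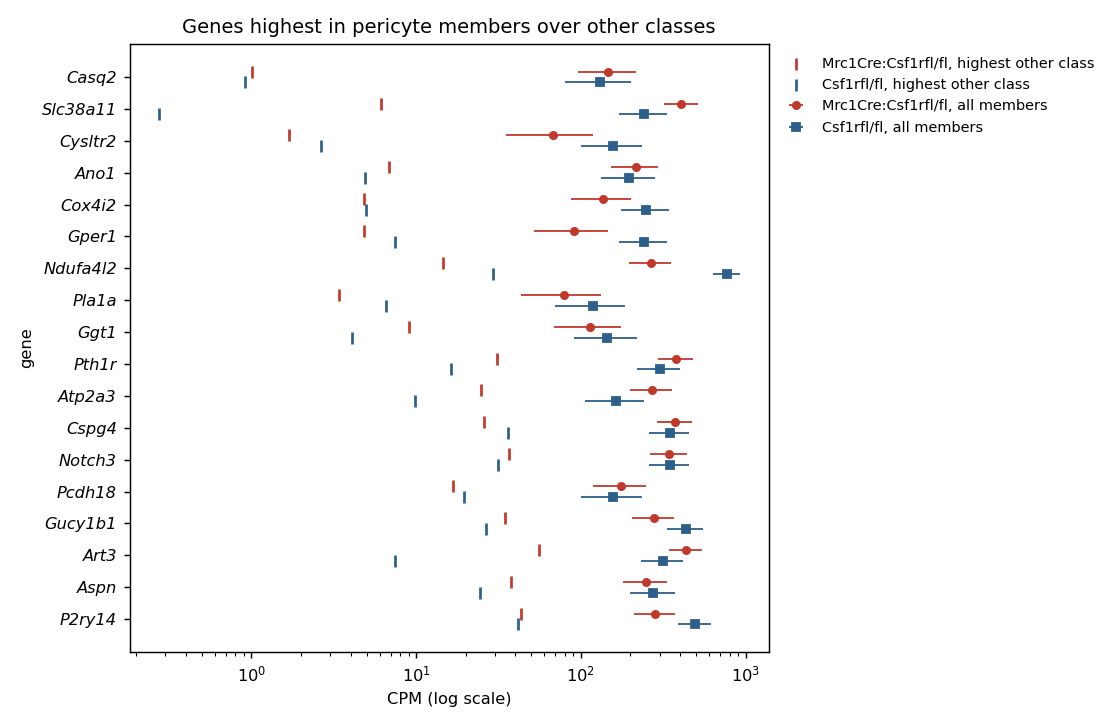
Points give the CPM of 18 of the 20 genes in all pericyte members, with exact 95% Poisson bars, and ticks give the CPM in the highest other compared class, on a log axis, for the mutant (red, circles) and the control (blue, squares). Every gene drawn lies at least 6.55 times above the next class in both libraries.

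Il34, the ligand of the Csf1 receptor that the study's title names, had its highest levels in pericytes and, after them, fibroblasts. In all members it stood at 153 CPM in the mutant (101 to 222, 27 UMIs in 14 of 62 members) and 170.2 CPM in the control (111 to 249, 26 UMIs in 12 of 23 members). Without mixed members it stood at 374 CPM in the mutant (229 to 578, 20 UMIs) and 497 CPM in the control (272 to 833, 14 UMIs). The ratio, mutant over control, was 0.896 (0.503 to 1.60) over all members and 0.754 (0.362 to 1.61) over unmixed members, and both intervals include 1. An effect within these bounds cannot be seen at this depth.

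Fibroblast barcodes came next, at 39.9 CPM in the mutant (31.1 to 50.4) and 73.4 CPM in the control (53.6 to 98.3). In mutant microglia 0.267% of barcodes had an Il34 UMI, at a median depth of 8049.5 UMIs, where 22.6% of mutant members had one at 1146.5 UMIs. In control microglia 0.211% had one at 7886 UMIs, where 52.2% of control members had one at 2857 UMIs. Endothelial, astrocyte, BAM and choroid plexus barcodes each had at most 1.61 CPM in either library, and their intervals overlap. The few oligodendrocyte and neuron barcodes had 1 UMI each in the mutant and 0 in the control. In order of level, pericyte members stood above fibroblasts with intervals apart in both libraries, and fibroblasts above the remaining compared classes. The interval of mutant neuron barcodes, 0.212 to 46.6 CPM from 11 barcodes, overlaps that of mutant fibroblasts, so neurons are not placed below them. Control ependymal barcodes, 9 in all, likewise had a wide interval, 0 to 68.4 CPM.

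**Figure D4:**
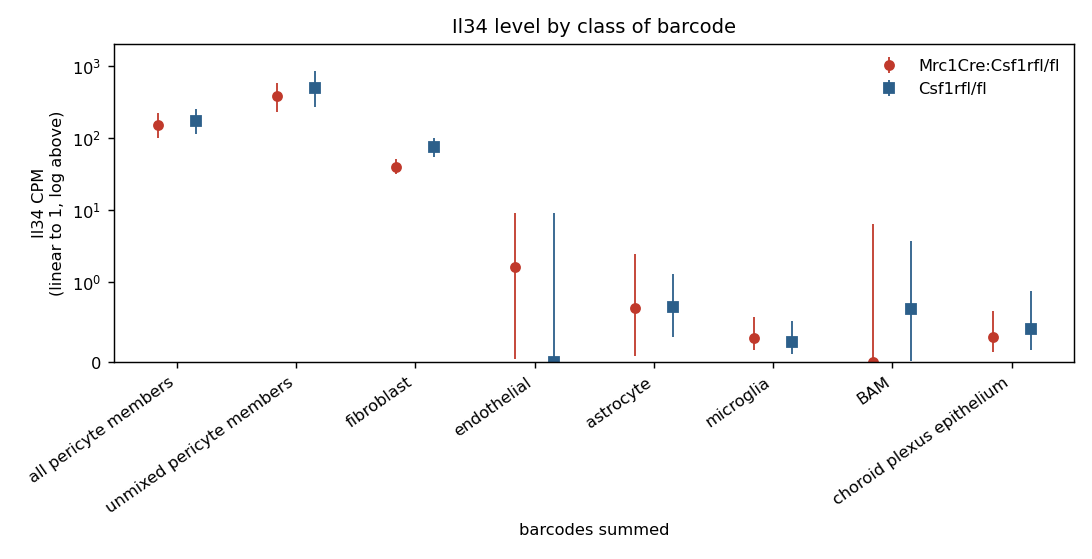
Il34 CPM by class of barcode with exact 95% Poisson bars, for the mutant (red circles, left of each pair) and the control (blue squares). The axis is linear up to 1 and logarithmic above. Pericyte members lie above fibroblasts, and the other classes drawn lie at or below 1.61 CPM.

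Csf1, the other ligand, was near the limit of detection in pericytes, with 2 UMIs in mutant and 1 UMI in control members and none in unmixed members. Csf1r itself, the targeted gene, was at 616 CPM in mutant members (109 UMIs, 48 of them in the deepest) and 58.9 CPM in control members (9 UMIs). In unmixed members it was at 281 CPM in the mutant (157 to 463, 15 UMIs) and 142 CPM in the control (38.7 to 363, 4 UMIs), at a ratio of 1.98 (0.630 to 8.19). A Csf1r UMI was found in 27.1% of unmixed mutant members and 21.4% of unmixed control members, at median depths of 896.5 and 1411.5 UMIs. Endothelial barcodes, which should lack it, had one in 38 of 223 mutant and 36 of 131 control barcodes (27.5% in the control) at 1892 and 2711 UMIs, and choroid plexus barcodes in 23.9% and 28.8% at 11972 and 14031 UMIs. The intervals of the unmixed pericyte shares, 15.3 to 41.8% in the mutant and 4.66 to 50.8% in the control, include those shares. The depths are unlike, however. Csf1r was at 77.3 CPM (57.0 to 103) in mutant and 119 CPM (87.5 to 157) in control endothelial barcodes. In choroid plexus barcodes it was at 20.4 and 24.6 CPM. The CPM interval of unmixed mutant members lies above these, and that of unmixed control members overlaps the endothelial one. No Csf1r expression of pericytes is read from these values. The microglial markers of the unmixed members stood at 13.6% and 7.93% of the microglial level in the mutant and the control, and their part was not tested. In BAM-marked barcodes, the cells with Mrc1, Csf1r was at 1138 CPM in the mutant (82 barcodes) and 1298 CPM in the control (225 barcodes). The libraries read the 3′ end of the transcript and the labels do not place the floxed exon, so none of these values tests for recombination.

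Between genotypes, genes were compared by a rule of size. A gene was measured with at least 30 UMIs over the members of both libraries and called when its CPM differed by 1.5-fold or more, mutant over control, and the exact interval of the ratio left out 1. The rule did not take in the 12 genes that chose the members, genes that mark sex, haemoglobins or predicted genes. Genes encoded in mitochondria and ribosomal protein genes were left out by their symbols, which missed the ribosomal protein gene Rpsa. Genes with under 10% of their CPM in another class were counted apart. Over all members 354 of 1934 measured genes were higher in the mutant (18.3%) and 381 were lower (19.7%). The 10 higher genes whose interval lay farthest from 1 included Ctss, C1qa, C1qb, Fcrls, Ly86 and Elmo1, which are known in microglia. C1qa, the A chain of complement C1q, had 2762 CPM in mutant and 151 CPM in control members, and 53.8% of its mutant UMIs came from 1 member. Slc8a1, Ly86 and Gria2 had no UMI in control members and were at least 34.8-fold, 32.5-fold and 19.9-fold higher in the mutant (against 3 UMIs over the control members), with 62.0%, 56.6% and 89.9% of their UMIs in 1 mutant member. Csmd3 and Npas3 likewise had 58.3% and 55.3% of their mutant UMIs in 1 member. The ratio of Npas3, 38.6 over all members, was 0.380 among members with at most 10% mitochondrial UMIs and 0.746 with 2 markers.

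The lower genes of the full comparison had the same weight of single members on the control side. Ttr had 35657 CPM in mutant and 106805 CPM in control members, with 65.9% of the control UMIs in 1 member. Clic6 and Igfbp2, known in choroid plexus, Prlr and the chemokine gene Ccl19 had 76.7%, 83.0%, 86.4% and 93.8% of their control UMIs in 1 member, Ccl19 being at least 12.4-fold lower in the mutant, where it was at 0. The ratio of Igfbp2, 0.222 over all members, was 1.07 without the deepest member of each library. Lgals1 (galectin-1) at 73.4 and 412 CPM, Ppp1r14a, an inhibitor of myosin phosphatase, at 50.8 and 308 CPM, Ddit4l at 45.2 and 288 CPM and Mt3 at 395 and 1505 CPM in mutant and control members were lower with at most 61.3% in 1 control member. Without mixed members Ttr was 1.90 times as high in the mutant as in the control. Mixed members held most UMIs of both libraries, so the unmixed members are described next.

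In the unmixed members 21 of 254 measured genes were higher in the mutant (8.27%) and 36 were lower (14.2%). Of the 354 and 381 genes called over all members, 14 and 24 were called the same way here, and 2 of the higher genes, Qk and Tmsb4x, were called lower, named after their values were seen. As a share of the unmixed calls the 14 and 24 genes are 66.7% in each direction, and of the calls over all members 3.95% and 6.30%. Most of the calls over all members could not be repeated, since 49 of the 354 and 47 of the 381 genes were still measured in unmixed members. The median log2 ratio of all measured genes was 0.02. Scaling by the trimmed mean of M values (TMM) in place of the total moved the median by 0.41 on the log2 scale and the calls to 60 higher and 16 lower, so the balance of higher and lower genes depends on the scaling. CPM without mitochondrial UMIs gave 35 higher and 31 lower genes, with a median shift of 0.13. All 21 higher genes and 16 of the 36 lower genes were called the same way under TMM. Without the deepest unmixed member of each library, 15 of 201 measured genes were higher and 18 lower. Of the 21 higher and 36 lower genes, 13 and 14 kept their call there. At up to 10% mitochondrial UMIs, where 73 genes were measured, 4 and 9 kept it.

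Among the higher genes, Rbms3, an RNA-binding protein, had 1198 CPM in unmixed mutant members and 319 CPM in unmixed control members, a ratio of 3.75 (1.86 to 8.57). Atp2a3 had 786 CPM in the mutant and 213 CPM in the control, at a ratio of 3.69 (1.56 to 10.6). Cobll1, an actin-binding protein, had 973 and 284 CPM, Rora, a nuclear receptor, had 2433 and 1099.9 CPM and Plcl1, a phospholipase C-like protein, had 3481 and 1809.5 CPM in mutant and control members. Zfand3, Phldb2, Rpsa and Zeb1, a transcriptional repressor, were higher too, with ratios of 2.59 to 3.96 on 4 to 12 control UMIs. Cobll1 had 8 control UMIs. Reads of Rpsa can be split among its near-identical processed copies, which makes its value uncertain.

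Among the lower genes, Myl9, the regulatory light chain of smooth muscle myosin, had 262 CPM in the mutant (14 UMIs in 11 of 48 members) and 1490.2 CPM in the control (42 UMIs in 6 of 14 members), at a ratio of 0.176 (0.0887 to 0.328). H3f3b, a histone H3.3 gene, had 430.5 and 2164 CPM, a ratio of 0.199 (0.117 to 0.326), and the initiation factor gene Eif1 had 225 and 1313 CPM in mutant and control members. Hspb1, a small heat-shock protein, had 112 CPM in the mutant and 1029 CPM in the control, with 72.4% of the control UMIs in 1 member. Ifitm1, an interferon-induced membrane protein, had 93.6 and 1064 CPM, with 90.0% of the control UMIs in 1 member, and its ratio was 0.446 without the deepest member of each library, where it was no longer measured, against 0.0879 with them. Aldoa (262 and 923 CPM), Ppia (281 and 958 CPM), Atp5b (187 and 709.6 CPM), Pde3a (206 and 674 CPM) and Ptk2 (262 and 781 CPM in mutant and control members) completed the named genes. Without the deepest members the ratios were 0.527 for Aldoa, 0.520 for Ppia and 0.167 for Hspb1, against 0.284, 0.293 and 0.109 with them. Ppia and Aldoa share sequence with processed copies or a second identifier and are uncertain.

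Higher and lower genes differed in span, the length of the gene from start to end. Higher genes of the unmixed members had a median span of 206 kb and lower genes of 11.6 kb, against 115 kb over all 254 measured genes. Of 134 genes over 100 kb, 15 were higher in the mutant (11.2%) and 8 lower (5.97%). Of 75 genes of at most 30 kb, 2 were higher (2.67%) and 23 lower (30.7%). Genes over 100 kb held a median of 31.2% of the non-mitochondrial UMIs of an unmixed mutant member and 25% of those of an unmixed control member. Over all members the medians were 28.4% in the mutant and 22.1% in the control. In endothelial barcodes the same share was 32.3% and 29.0%, in fibroblasts 17.3% and 16.9% and in astrocytes 42.2% and 39.8%, in the mutant and the control. The part of this share in the calls was not tested.

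**Figure D5:**
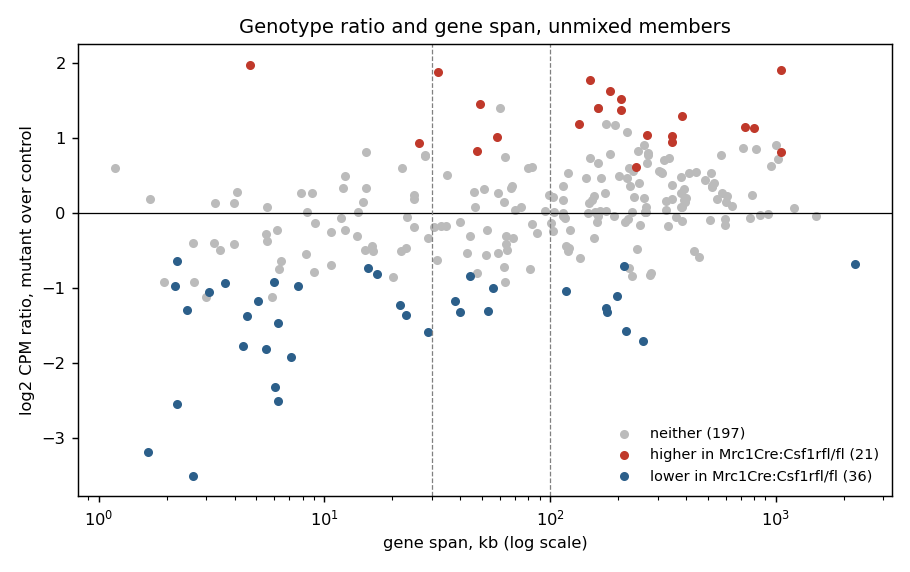
Each point is 1 of 254 genes measured in the unmixed members, with its span in kb on a log axis and its log2 CPM ratio, mutant over control. Red marks 21 genes called higher and blue 36 genes called lower in the mutant, and dashed lines stand at 30 and 100 kb. Most lower genes lie at short spans and most higher genes beyond 100 kb.

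Several gene lists held calls in both sets of members, among them vessel tone, transporters, hypoxia and oxidative phosphorylation. Of the 16 genes of vasoactive receptors and cyclic GMP signalling, 9 were measured over all members with 0 higher and 4 lower, and 6 over unmixed members with 0 higher and 2 lower (list medians −0.64 and −0.26 on the log2 scale, against −0.04 and 0.02 over all measured genes). Of all measured genes 19.7% were lower over all members and 14.2% over unmixed members. P2ry14 had 468 CPM (303 to 691) in unmixed mutant members and 1171 CPM (806 to 1644) in unmixed control members, a ratio of 0.400 (0.228 to 0.693). It kept that call under TMM scaling, at 0.530. Gucy1a1, the alpha subunit of the nitric oxide receptor, had 243 CPM in the mutant and 603 CPM in the control, at a ratio of 0.403 (0.180 to 0.882), and lost the call under TMM scaling, at 0.535. Its partner Gucy1b1 had 636 and 923 CPM, a ratio of 0.690 (0.402 to 1.20), and was lower over all members, at 0.641 (0.434 to 0.942). Prkg1, the kinase activated by cyclic GMP, had 4417 CPM in unmixed mutant and 4222 CPM in unmixed control members, a ratio of 1.05 (0.836 to 1.32).

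Of 12 ion channel genes 4 were measured in unmixed members. Ano1 was called higher, with 562 CPM in the mutant and 213 CPM in the control, at a ratio of 2.64 (1.08 to 7.75) that rests on 30 and 6 UMIs and was not called without the deepest members, and over all members its ratio was 1.09 (0.660 to 1.83). Cacna1c, the pore of the L-type calcium channel, had 1872 and 1597 CPM in unmixed mutant and control members, and the interval of its ratio, 1.17 (0.817 to 1.71), includes 1.

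Of 12 transporter genes 3 were measured in unmixed members, with 0 higher and 2 lower, beside 14.2% lower of all measured genes, and over all members 6 were measured with 0 higher and 1 lower. Slc19a1, the reduced folate carrier, had 225 CPM in the mutant and 674 CPM in the control, at a ratio of 0.333 (0.147 to 0.723). Slc6a20a, a proline and imino acid carrier, had 1029 CPM in the mutant and 1845 CPM in the control, at a ratio of 0.558 (0.375 to 0.831), and lost the call under TMM scaling, at 0.740, and without the deepest members, at 0.656. Slc30a10, a manganese exporter, had 374 and 461 CPM, a ratio of 0.812 (0.384 to 1.78).

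The receptor and the matrix genes that tie pericytes to the vessel did not differ by the rule in unmixed members. Pdgfrb had a ratio of 0.923 (0.629 to 1.37) and Notch3 of 1.21 (0.704 to 2.17). Over all members Pdgfrb had a ratio of 0.746 (0.571 to 0.973) and Notch3 of 0.993 (0.676 to 1.46). Vtn had 0.836 (0.771 to 0.907) over all members and 0.759 (0.683 to 0.844) over unmixed members. The Vtn intervals and the Pdgfrb interval over all members left out 1, but these ratios were short of 1.5-fold and not called. Of 18 basement membrane genes 8 were measured in unmixed members, with 0 called in either direction and a median of 0.02 on the log2 scale. Col4a1 had 1104 CPM in the mutant and 1135 CPM in the control, and the laminin gene Lama2 had 1329 and 1242 CPM. Sparc, a collagen-binding protein, had 1404 CPM in the mutant and 1774 CPM in the control, and Sparcl1 had 1759 and 1987 CPM. Over all members 11 basement membrane genes were measured, and Col4a2 was lower, at 226 and 366 CPM in mutant and control members.

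Of 13 transcription factor genes 4 were measured in unmixed members and none was called. Ebf1, a regulator of mural and stromal cells, had 3631 CPM in the mutant and 3229 CPM in the control, at a ratio of 1.12 (0.872 to 1.46). Mef2c had a ratio of 1.74 (1.28 to 2.39) over all members but 0.976 (0.552 to 1.77) over unmixed members, and Nr2f2 had 0.454 (0.282 to 0.719) and 1.11 (0.499 to 2.63). Neither Mef2c, which microglia also use, nor Nr2f2, known in venous vessels, was called without the mixed members.

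Of 16 nuclear genes of oxidative phosphorylation 15 were measured over all members, with 0 higher and 14 lower in the mutant (median −1.06 on the log2 scale), beside 19.7% lower of all measured genes. Choroid plexus content moved with this, as all 4 measured choroid plexus markers were lower (median −1.85) and choroid-mixed members held 15.2% of member UMIs in the mutant and 46.8% in the control, and its part was not tested. In unmixed members 3 were measured and 2 were lower, Cox4i1 with 430.5 and 816 CPM and Atp5b with 187 and 709.6 CPM in the mutant and the control, while Cox6c had 449 and 319 CPM. Cox4i1 lost the call under TMM scaling, at 0.699, and without the deepest members, at 0.577. The 13 mitochondrial messenger RNAs, left out of the rule, summed to 149119 CPM in unmixed mutant and 95444 CPM in unmixed control members. Ndufa4l2 was lower in both sets of members, at 580.2 and 1135 CPM in unmixed mutant and control members (ratio 0.511, 0.302 to 0.865), without the call under TMM scaling, at 0.678. Cox4i2 was lower over all members, at a ratio of 0.545 (0.313 to 0.933), and had too few UMIs to be measured in unmixed members. Mitochondrial share, depth and gene span differ between the members of the libraries in the ways given above, and their part in these ratios was not tested.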

How the data were processed

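The deposited matrices hold whole-number UMI counts per gene and barcode, made by the authors with Cell Ranger 7.1.0 per the file headers, on GRCm38.p6 (mm10) per the submitters' processing notes. How cells were called, whether introns were counted and whether free RNA was corrected for is not given in the sources used here. All counts were used as deposited, from 1 library per genotype, with Python 3.11.15, numpy 2.4.6, scipy 1.17.1, pandas 2.3.3 and scanpy 1.11.5. The libraries held 82806348 UMIs in the mutant and 85716531 UMIs in the control, and intervals cover counting error only.

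Barcodes of other classes were those with at least 4 of 7 class markers (5 for microglia and fibroblasts), and members that passed such a count were called mixed. Counts were summed over the barcodes of a class and scaled to CPM. Shares have exact Clopper-Pearson intervals, CPM exact Poisson intervals and ratios exact conditional intervals, all at 95%. With 1 library per genotype no test was made. Genes were named by rule, as the 10 higher and 10 lower genes by the interval bound nearer to 1 at 20 CPM or more, the 20 leading genes of the class comparison, and members of function lists. Further genes of the lists were named for contrast. Spans come from GENCODE, which matched 25637 of 26033 genes, and promoters from RefSeq (GRCm38.p6). Doublets were called with Scrublet and kept, and leaving them out was an alternative. The size rule was tried on simulated Poisson sums. These follow the model of the intervals and lack the weight of single members seen here, so the trial says nothing of that weight. Other limits on genes, markers, mitochondrial share, depth, scaling and member weight were tried as alternatives, and those that combine a setting with leaving out mixed members, and the split by span, were chosen after seeing the data. The members and gene lists were chosen with earlier results of these data known. A list of nuclear long noncoding RNAs was not analysed here. A few genes that these rules name are not reported here.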

Additional observations from a re-analysis of the deposited data

How the results depend on the processing

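The share of members moved with the choice of barcodes. In the mutant it was 0.464% with at least 500 genes, 0.220% at up to 10% mitochondrial UMIs, 0.544% at up to 30%, 1.15% with 2 markers, 0.282% with 4 markers, 0.0942% without mixed members at up to 10%, and 0.109% after thinning. In the control it was 0.451% with 2 markers, 0.162% with 4 markers and also without mixed members (whatever the CPM total or weighting), 0.136% without mixed members at up to 10%, and 0.160% after thinning. Class genes numbered 16 at up to 10% mitochondrial UMIs and 22 there without mixed members. Over all members, higher genes numbered 228 with 4 markers, 21 without mixed members, 222 with equal weight per member, 127 without the deepest member of each library, and 694 and 78 with minimums of 10 and 100 UMIs. Lower genes numbered 36 without mixed members, 205 without the deepest members, and 602 and 119 with those minimums. In unmixed members, higher genes numbered 11 at up to 10% mitochondrial UMIs, 35 without mitochondrial UMIs in the total and 60 under TMM, and lower genes 17 at up to 10%, 20 with 4 markers, 16 under TMM, 23 with equal weight and 18 without the deepest members. Npas3 reversed to a ratio of 0.380 at up to 10% mitochondrial UMIs and 0.746 with 2 markers, Ttr to 1.90 without mixed members, and Igfbp2 to 1.07 without the deepest members. For each of these the cause was not tested. The remaining 50 summary values stayed within the bounds set for them. Settings in unmixed members were chosen after seeing the data. No paired analysis was possible because each genotype has 1 library.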

Other observations

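Among gene groups not described above, a few genes were called over all members, where 18.3% of all measured genes were higher and 19.7% lower in the mutant. Of 14 interferon genes 5 were measured, of which B2m was higher in the mutant and Bst2, Ifitm1, Ifitm2 and Ifitm3 were lower. Reads can be split among the similar Ifitm genes, so their separate values are uncertain. Of 21 immediate early genes 3 were measured and Jun and Btg2 were higher, and of 11 TGF-beta pathway genes 3 were measured and the receptor genes Tgfbr1 and Tgfbr2 were higher. Microglial content moved with these, as all 5 measured microglial markers were higher (median 3.34 on the log2 scale) and 5 mutant members but 0 control members were mixed with microglia, and its part was not tested. In unmixed members no immediate early or TGF-beta gene was measured, and of 2 interferon genes measured Ifitm1 was lower.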
